A study of Homo sapiens with 6 samples.

Results

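The divergent promoter of LYRM4 and FARS2 was described by the ZNF335 ChIP-seq peaks that overlap chr6:5260800-5262300 on hg19. Of the 809 peaks deposited in all, 4 met this rule: 2 of the 634 peaks of the wild-type (WT) list, 2 of the 174 peaks of the bloto list, and 0 of the 1 peak of the control list. The site was chosen from these lists, so its peaks, reads and distances are a description and carry no test. All samples came from Jurkat T-REx, a T cell leukaemia line of human origin whose tetracycline repressor lets doxycycline switch on an introduced gene. In 1 clonal line this gene was 3xFLAG-tagged WT ZNF335, in another it was 3xFLAG-tagged bloto ZNF335, which carries the substitution R1092W, and the control expressed no tagged protein. The labels give the same overnight doxycycline treatment for all 3, and the tagged protein came from an introduced plasmid. The series has 3 anti-FLAG ChIP samples and 3 input samples, 1 library per condition, so nothing here has a replicate error and clone, library and substitution cannot be told apart.

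ZNF335 (Zfp335 in mouse) is a transcription factor with arrays of C2H2 zinc fingers that bind DNA, and the series title concerns the use of separate arrays for separate motifs. Both genes of this promoter serve mitochondria. LYRM4, also called ISD11, is the small LYR-motif protein that stabilises the cysteine desulfurase NFS1 in the complex that builds iron-sulfur clusters. FARS2 is the mitochondrial phenylalanyl-tRNA synthetase, which loads phenylalanine onto its tRNA for protein synthesis inside the organelle. A divergent promoter is a short stretch of DNA between genes that are transcribed away from each other. LYRM4 is on the minus strand and FARS2 on the plus strand, so lower coordinates lead into LYRM4 and higher coordinates into FARS2. Below, the LYRM4 side and the FARS2 side name these directions along the peaks, and not the annotated start at which a summit lies, which was not determined.

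The sequences of all 3 annotated starts are shown because the peaks spread over both sides of the promoter. They are RefSeq promoters of GRCh38.p14, from 250 bases before to 50 after an annotated start, and the peaks are on hg19. No coordinate was converted between the builds, so which of these bases lie under which summit was not determined. The table lists 1 start for LYRM4 and 2 for FARS2. The first FARS2 start lies 57 bp from that of LYRM4 and the second 563 bp from it, so a summit near the LYRM4 start would be near a FARS2 start as well. Printed 5′ to 3′ on the strand of the gene, with GC boxes (GGGCGG on either strand, a site type bound by Sp and KLF factors) in capitals, the LYRM4 promoter (GRCh38.p14 chr6:5260901-5261200, minus strand), the first FARS2 promoter (GRCh38.p14 chr6:5260757-5261056, plus strand) and the second FARS2 promoter (GRCh38.p14 chr6:5261263-5261562, plus strand) read:
LYRM4: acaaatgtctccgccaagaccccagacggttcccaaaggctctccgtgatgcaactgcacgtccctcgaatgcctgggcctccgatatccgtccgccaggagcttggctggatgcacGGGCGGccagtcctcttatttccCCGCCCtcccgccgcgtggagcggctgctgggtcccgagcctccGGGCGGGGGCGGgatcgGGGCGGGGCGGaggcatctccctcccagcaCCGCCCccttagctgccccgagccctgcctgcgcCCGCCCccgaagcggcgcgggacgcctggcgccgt
FARS2 first: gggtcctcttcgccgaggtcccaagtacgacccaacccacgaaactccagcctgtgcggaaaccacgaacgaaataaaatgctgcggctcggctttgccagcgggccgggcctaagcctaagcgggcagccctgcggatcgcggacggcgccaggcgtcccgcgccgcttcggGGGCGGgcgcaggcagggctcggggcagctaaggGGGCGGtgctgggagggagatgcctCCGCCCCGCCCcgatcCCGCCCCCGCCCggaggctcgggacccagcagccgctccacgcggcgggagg
FARS2 second: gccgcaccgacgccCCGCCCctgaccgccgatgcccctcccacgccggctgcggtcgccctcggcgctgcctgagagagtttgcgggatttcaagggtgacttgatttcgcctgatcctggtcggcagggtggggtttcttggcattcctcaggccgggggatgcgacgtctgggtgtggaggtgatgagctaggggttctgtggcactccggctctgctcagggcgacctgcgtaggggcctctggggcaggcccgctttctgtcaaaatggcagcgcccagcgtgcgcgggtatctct

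The LYRM4 and the first FARS2 promoter were dense in GC boxes and the second FARS2 promoter was not. The LYRM4 window held 8 GC boxes, counting overlapping matches, and the second FARS2 window held 1, while 44.95% of the 35116 promoters of this length had at least 1. The first FARS2 promoter shares 156 bp with the LYRM4 window on the opposite strand and held 6, all of them in that shared stretch and so counted for LYRM4 as well. The GC content was 72% for LYRM4, 73% for the first and 67% for the second FARS2 promoter, against a median of 58.7% over all promoters. CpG dinucleotides numbered 33, 37 and 26, against a median of 14. Neither a CCAAT box (CCAAT, in 34.6% of promoters on either strand) nor a TATA box (TATAAA, in 11.5%) was found in any of the 3 windows. The second FARS2 window held 1 match to AANATGGC, the core letters bound by YY1, which 6.58% of promoters hold, and the other windows held 0. The longest word common to the LYRM4 and the second FARS2 window was cgccccgcccc, of 11 bases and on opposite strands, which is itself made of GC-box letters and occurs in 3.50% of promoters. These matches describe letters and not bound sites.

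Head-to-head pairs of protein-coding genes with starts at most 1000 bp apart made up 12.3% of the 15843 protein-coding genes in the RefSeq promoter table. A list of genes that load mitochondrial tRNAs held FARS2, other synthetases and subunits of the amidotransferase that makes glutaminyl-tRNA. Of its 19 genes found in the table, 8 had such a neighbour: the synthetase genes EARS2, FARS2, HARS2, KARS1, RARS2 and SARS2, and the amidotransferase genes GATC and QRSL1. Of 17 iron-sulfur cluster assembly genes, the group LYRM4 belongs to, 4 had one (HSCB, ISCA2, LYRM4 and NFS1). Among 9 LYR-motif family genes, LYRM1 and LYRM4 had one. Of the 2 genes of the cytosolic phenylalanine enzyme, FARSA and FARSB, 0 had one. The other lists each count LYRM4 or FARS2, which have such a neighbour through the choice of the site. These counts concern gene order alone, and whether the other genes of these lists carried ZNF335 peaks was not analysed here, since the gene table is of another build than the peaks.

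In cells with WT ZNF335 the promoter carried a broad, strong peak with its summit near the low-coordinate, LYRM4-side edge. This peak, chr6:5260920-5262166, was 1247 bp wide, with its summit at 5261130. The authors' fold over local background at the summit was 19.6, with a −log10 p of 65.3 and a −log10 q of 58.8. The fold and p-value together gave 72 ChIP reads over the summit (exact Poisson 95% interval 56.3 to 90.7, which like all intervals here covers counting error only) above a local background of 2.56 reads. In the WT list this was rank 18 of 634 by fold, rank 30 by reads and rank 3 by width. The summit lay 210 bp from the low-coordinate edge and 1036 bp from the high-coordinate edge, so 16.8% of the interval lay on the LYRM4 side of it and the rest extended towards FARS2. Its neighbours in the list were chr6:133135223-133135876 just above in fold, with a fold of 19.7 and 56 reads, and chr20:44600219-44601194 just below, where 89 reads gave a fold of 19.3. The next wider WT peak, chr3:122101739-122103011, was 1273 bp wide but had 41 reads.

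The WT list also held a small peak further to the LYRM4 side. No bloto peak overlapped it, as was the case for most WT peaks, 26.2% of which overlapped one. It lay at chr6:5260569-5260803, overlapped the window of the rule by 4 bp, and was separated from the broad peak by 116 bp. Its fold was 7.52, its summit was at 5260722, 408 bp from that of the broad peak, and 23 reads covered it (14.6 to 34.5). This is 0.32 of the reads at the broad peak (0.19 to 0.52). In the WT list it ranked 256 of 634 by fold and 382 by reads, and the peak of equal fold, chr16:50186324-50186898, also had 23 reads. The summit of this small peak lay outside the window of the rule, on its low-coordinate side, while that of the broad peak lay inside. Both WT summits were at lower coordinates than the stronger bloto summit. Adjacent WT peaks this close were uncommon: 17 of 611 neighbouring pairs had a gap of 116 bp or less. The nearest peaks outside the window were far away, with WT peaks at chr6:5003908-5004270, 256.65 kb below, with a fold of 7.39 and 42 reads, and at chr6:10147376-10147527, 4885 kb above, with 15 reads. The nearest bloto peak outside it was chr6:10694819-10695173, 5433 kb above, with 46 reads.

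In cells with bloto ZNF335 the same stretch was called as 2 separate peaks, and the stronger of them was on the FARS2 side. The LYRM4-side bloto peak, chr6:5260964-5261212, was 249 bp wide, with its summit at 5261141, 11 bp from the WT summit. It had a fold of 8.24, a −log10 q of 14.01 and 26 reads at its summit (17.0 to 38.1) above a background of 2.28. The FARS2-side bloto peak, chr6:5261369-5261952, was 584 bp wide, with its summit at 5261612, 482 bp from the WT summit. It had a fold of 10.9, a −log10 q of 30.4 and 46 reads (33.7 to 61.4) above a background of 3.30. The bloto summits lay 471 bp apart, and 156 bp between the peaks was not called. Both bloto peaks lay inside the broad WT peak, in a list of which 98.9% of the peaks overlapped a WT peak. They took up unequal parts of it, with 19.97% of its length under the LYRM4-side and 46.8% under the FARS2-side peak, while 44 bp at its low and 214 bp at its high edge had no bloto peak.

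**Figure D1:**
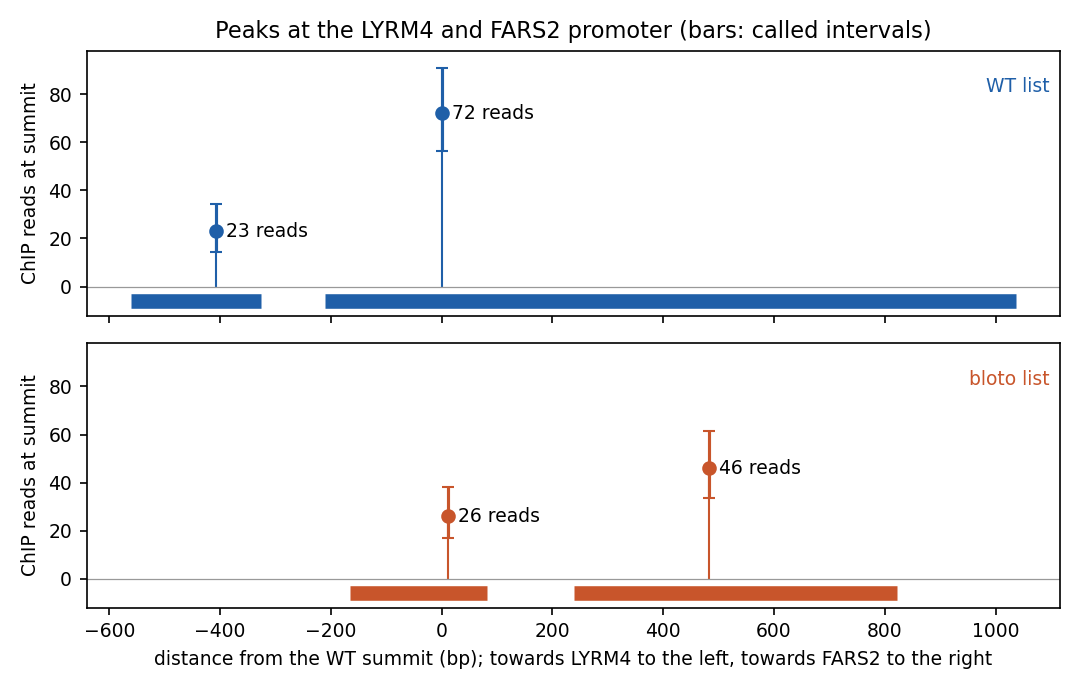
ChIP reads at each summit (y axis, with exact Poisson 95% intervals) against the distance from the WT summit in bp (x axis), for the WT list above and the bloto list below, with thick bars for the called intervals. The WT reads are highest at 0 bp (72), and the bloto reads are highest 482 bp towards FARS2 (46), with 26 at the LYRM4-side summit.

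The side with more reads in the bloto list was not the side of the WT summit. Within the bloto library the FARS2-side summit had 1.77 times the reads of the LYRM4-side summit (exact conditional 95% interval 1.07 to 2.98). Both counts are peak maxima at a site chosen from these lists, so the interval is no test of a difference. The authors' folds of these peaks differed by less, by 1.33 times, because the local background was higher at the FARS2 side. In the WT library the summit is the position of most reads in the peak, so the WT reads at the FARS2 side were at most 72 and no more than at the LYRM4 side. The WT list gives no reads at the FARS2-side position itself. In their own list of 174 peaks the bloto peaks ranked 113 (LYRM4 side) and 30 (FARS2 side) by reads, and 94 and 49 by fold. The bloto median was 33 reads, so the LYRM4-side peak lay below it and the FARS2-side peak above.

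The background values also give the input at this promoter. Each was a whole number of input reads in a window of 1 kb at the summit, if the caller's 1 kb window set it. Which input sample was set against each ChIP is not given. In the input used for the WT list these were 12 reads at the flanking and 15 at the broad peak. In the input used for the bloto list they were 20 reads at the LYRM4-side and 29 at the FARS2-side peak. Relative to the mean depth of each input these are 1.62, 2.02, 1.68 and 2.44 times the genome-wide level. The caller takes the highest of several background estimates, so none of these could fall below the genome-wide level, and the windows of neighbouring summits overlap. The part of this in the called peaks was not tested.

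Set against the WT maximum at equal depth, the LYRM4-side bloto summit reached a smaller share than the FARS2-side bloto summit. Both shares are of the same WT maximum, so their order only repeats that of the bloto reads. Whether bloto reads were fewer than WT reads at the FARS2-side position is not known, since the WT reads there are not listed. After scaling by the depth ratio of 1.07 and subtracting local background, the LYRM4-side bloto summit reached 0.32 of the WT summit, and 0.34 without subtraction (0.21 to 0.54). The FARS2-side bloto summit reached at least 0.57 of the WT reads at its own position, since those could not exceed the WT maximum and with the WT background taken as that at the WT summit, and 0.60 of that maximum without subtraction (0.40 to 0.88). The intervals share the 72 WT reads and overlap each other. Across the 166 WT peaks with a bloto peak (26.2% of the WT list), the ratio at the nearest bloto summit had a median of 0.54, with an interquartile range of 0.46 to 0.62 and a range of 0.24 to 0.95. At 3 of the 166 sites it was lower than at the LYRM4 side of this promoter. Of the 37 such sites with 67 to 77 WT reads, 1 had a lower ratio than the LYRM4 side, and their median was 0.53. At all other shared sites the nearest bloto peak also had the most reads, so these counts compare unlike peaks. The weaker bloto peaks at the other WT peaks with 2 bloto peaks had ratios of 0.17 to 0.36. The FARS2-side ratio of 0.57, from the stronger peak and against the WT maximum, exceeded the nearest-summit ratio at 104 of the 166 sites. WT peaks without a called bloto peak have no ratio, so low ratios can be missing from these counts.

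**Figure D2:**
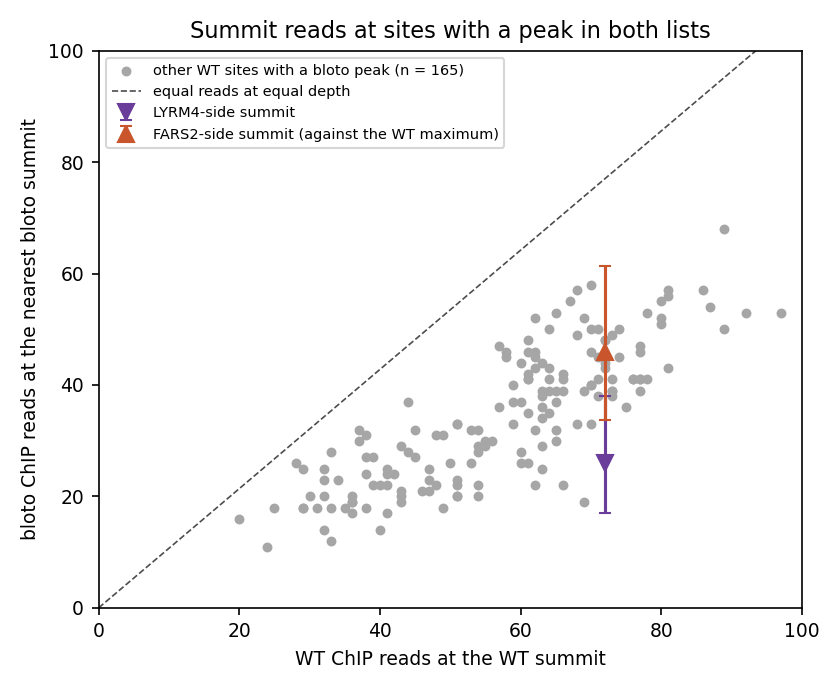
Bloto ChIP reads at the bloto summit nearest to the WT summit (y axis) against WT ChIP reads at the WT summit (x axis) for 165 other shared sites (grey), with both bloto summits of the LYRM4 and FARS2 promoter plotted at the WT maximum of 72 reads with exact Poisson 95% intervals, and a dashed line for equal reads at equal depth. The FARS2-side summit (46 reads) lies among sites of like WT reads, and the LYRM4-side summit (26 reads) lies near the lower edge of the cloud. At the other sites the nearest bloto summit was also the one with the most reads, whereas here it was the weaker.

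Of the 634 WT sites, 166 overlapped any bloto peak. A WT peak overlapping 2 bloto peaks occurred at 6 of the 634 WT sites, 0.946% (exact Clopper-Pearson 95% interval 0.35% to 2.05%). The others were chr17:47784667-47785884, chr7:10979525-10980331, chr11:34937331-34938248, chr16:70557259-70558053 and chr19:3185301-3186284. The bloto reads of the stronger and the weaker peak were 41 and 16 on chromosome 17, 39 and 15 on chromosome 7, 37 and 18 on chromosome 11, 30 and 15 on chromosome 16, and 21 and 18 on chromosome 19. At these 5 sites the stronger bloto summit was the one nearer to the WT summit, at a distance of 4 to 212 bp. The LYRM4 and FARS2 promoter was the 1 site of the 6 at which the weaker bloto summit was the nearer, and its distant bloto peak, with 46 reads, had the most reads of the 12 bloto peaks at these sites. Of the 10 WT peaks wider than 1000 bp, 2 overlapped 2 bloto peaks (20%, interval 2.52% to 55.6%) and 8 overlapped 1. Most of these 10 wide WT intervals were thus matched by a single bloto peak.

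**Figure D3:**
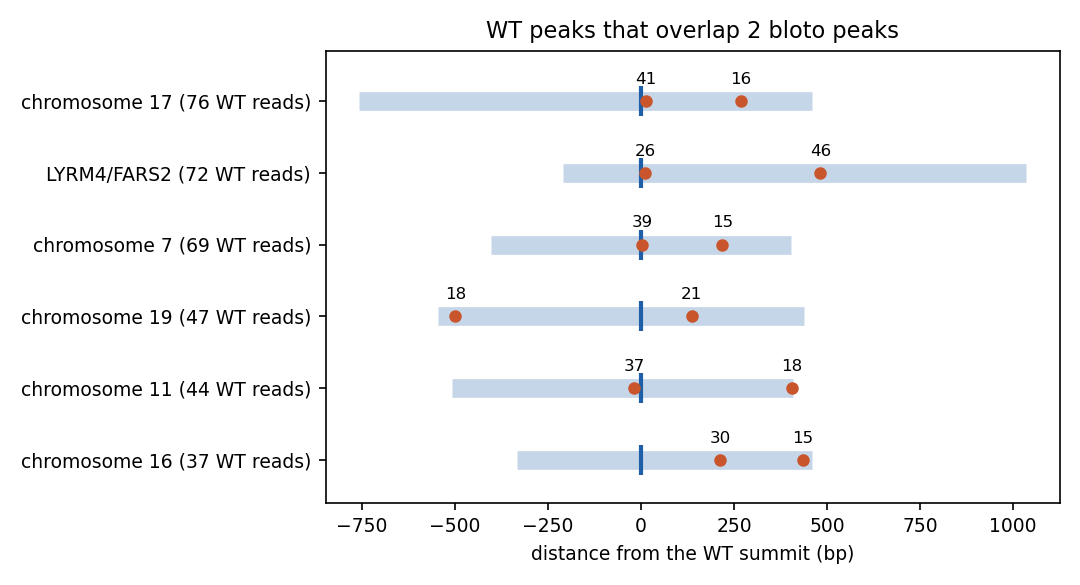
Distance in bp from the WT summit (x axis) of the bloto summits (dots, with their reads) at the 6 WT peaks that overlap 2 bloto peaks, with pale bars for the WT intervals and vertical ticks for the WT summits. At LYRM4/FARS2 the dot next to the tick has 26 reads and the distant dot 46, while at the other sites the dot nearer to the tick has the higher number.

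How far the bloto summit appears displaced depends on which bloto peak stands for the site. Measured to the bloto peak with the most reads, the distance was 482 bp, against a median of 18.5 bp over the 166 shared sites, 13 of which (7.83%) exceeded 100 bp, and the next largest distance was 383 bp. Measured to the nearest bloto summit it was 11 bp, and 58 of the 166 sites (34.9%) had a distance this small or smaller, while 12 (7.23%) exceeded 100 bp. The summits of both lists thus lay within 11 bp of each other at the LYRM4-side position, and the bloto list gave a further summit with more reads at higher coordinates. The broad WT interval covers that position too but is listed with 1 summit. Whether the WT reads had a lesser maximum there is therefore not known.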

How the data were processed

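Each ChIP sample has 1 deposited peak list. The submitters' processing notes name MACS2 and hg19, and before them CASAVA 1.8.2, cutadapt 1.4.1, BWA and SAMtools. Neither the MACS2 cutoff nor the input set against each ChIP is given in the sources used here. Per peak, the authors deposited a fold (the ratio of ChIP to local background), −log10 of the p-value, −log10 of the q-value within that list, a score (10 times the latter, cut to a whole number) and the summit offset. Coordinates are counted from 1.

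Reads were recovered from the deposited fold, (pileup + 1)/(background + 1), and the deposited −log10 p, the Poisson tail of the pileup. All 634 WT pileups were whole multiples of 0.856 and all 174 bloto pileups whole numbers, within 0.001 reads; 1 peak in each list had more than 1 solution, none of them at this promoter. The recovery was tested on simulated data. The lowest background, shared by 13 WT and 3 bloto peaks, divided by the read extension of 146 bp (the narrowest peak in both lists), gave 8.67 WT and 9.28 bloto ChIP reads per kb, and 7.43 and 11.9 input reads per kb, if both lists used the same genome size. For the control library no depth could be recovered.

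Peaks counted as shared from 1 bp of overlap. Other sites named are the WT peaks overlapping 2 bloto peaks and the neighbours in position or rank. The site, the lists and the tests were chosen with earlier results of these data known, and the sequence motifs after the promoters were seen. Alternatives varied overlap, cutoffs, the bloto peak used, depth scaling and background. Python 3.11.15, numpy 2.4.6, pandas 2.3.3, scipy 1.17.1 and matplotlib 3.10.9 were used.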

Additional observations from a re-analysis of the deposited data

How the results depend on the processing

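Of 17 values recomputed under alternatives, 12 stayed within the counting interval of the value given or, where peaks are counted, within 1.5 times of it, and 5 moved further. With reciprocal overlap of at least 50%, 0 bloto peaks matched the WT peak at LYRM4 and FARS2 and 0 WT peaks matched 2 bloto peaks, as follows from 1 wide interval being set against narrower ones. A −log10 q of at least 5 left 3 WT peaks with 2 bloto peaks, this promoter among them. The nearest bloto summit gave a distance of 11 bp in place of 482 bp. Requiring 50 bp of overlap with the window, an alternative chosen after seeing the data, left 1 WT peak in place of 2, without the flanking one. The genome-wide WT background, also chosen after seeing the data, gave 0.56 for the FARS2-side ratio. No paired analysis was possible because there is only 1 library of each kind, and no replicate could be left out. Promoter peaks of the other genes of the lists were not run. No library was thinned to another depth, and a missing bloto peak means only that the authors' cutoff was not passed.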
